A study of Homo sapiens with 5 samples.

Results

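The m6A writer genes were described in the human embryonic kidney line HEK293T after ascorbic acid (vitamin C) and without it. The 9 genes were taken by symbol from a deposited table of counts for 28278 genes. They are METTL3, METTL14, WTAP, VIRMA, RBM15, RBM15B, ZC3H13 and CBLL1, which encode the methyltransferase complex, and METTL16, which encodes a separate enzyme. Each of the 9 symbols had its own row, and all 9 passed the filter on low counts, as did 15271 genes in all. The ascorbic acid group had 2 libraries and the control group 3. The labels call the control genotype WT and give no change to the genome in either group, and they state no dose. Treatment lasted 24 h where DNA methylation was to be measured and 36 h where RNA methylation was, and the labels do not say which time these libraries had. The medium was renewed at intervals of 6 h. Both groups were the same line, grown in high-glucose DMEM with serum, and poly(A) RNA was captured on beads.

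N6-methyladenosine (m6A) is the most common internal base modification of mRNA. It is placed in the nucleus by a complex in which METTL3 transfers a methyl group from S-adenosylmethionine and METTL14 helps to hold the RNA, while WTAP, VIRMA, ZC3H13, CBLL1, RBM15 and RBM15B anchor the complex and bring it to its sites. The mark is removed by FTO and ALKBH5, iron and 2-oxoglutarate dependent dioxygenases of the family that ascorbic acid serves by keeping iron reduced. The writers are not dioxygenases. The comparison addresses whether the transcripts of the proteins that place the mark differed in level after ascorbic acid.

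The libraries held 35106664 to 57212071 counts. Even numbers made up 71.3 to 75.9% of counts between 1 and 10, so a value may rest on fewer fragments than its count. Of 8 markers listed for the line, 5 were above 5 CPM (counts scaled by library totals adjusted with TMM factors) in every library, among them VIM at 806 to 914 CPM, while PAX2 and LHX1 were below 1 CPM throughout. The summed level of the keratinocyte, hepatocyte, endothelial and fibroblast markers was at most 0.678 CPM in any library. The endothelial sum was 0.247 to 0.327 CPM in ascorbic acid libraries and at most 0.144 CPM in control libraries, the hepatocyte sum 0.124 to 0.187 CPM in ascorbic acid libraries and at most 0.107 CPM in control libraries, and their part in the results was not tested. The labels do not say whether each library had a culture of its own, so a p-value here measures library-to-library spread that may be technical. In bulk RNA, a change in the share of cells that express a gene and a change in RNA per cell cannot be told apart.

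Of the 9 writer genes, 1 fell, 0 rose and 8 did not pass an adjusted p of 0.05 (edgeR quasi-likelihood test, Benjamini-Hochberg over all tested genes). The gene that fell was RBM15B, with 87.2 ± 6.77 CPM in ascorbic acid libraries (SD, n = 2) and 99.4 ± 3.24 CPM in control libraries (SD, n = 3). Across all tested genes 14.3% passed in either direction, 8.53% higher and 5.76% lower, so a count of 1 in 9 is near the share of the whole table. The median log2 fold change of the writer genes was -0.05, with a range of -0.19 to 0.05, against 0.00 for all tested genes and -0.04 for the 3794 tested genes between 50 and 200 CPM, where 7 of the writer genes lie. At an unadjusted p of 0.05, 3 of the 9 passed, RBM15B, CBLL1 and METTL16, all of them lower with ascorbic acid. Of the 15271 tested genes, 4276 passed that unadjusted threshold in either direction and 1945 of these were lower.

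**Figure D1:**
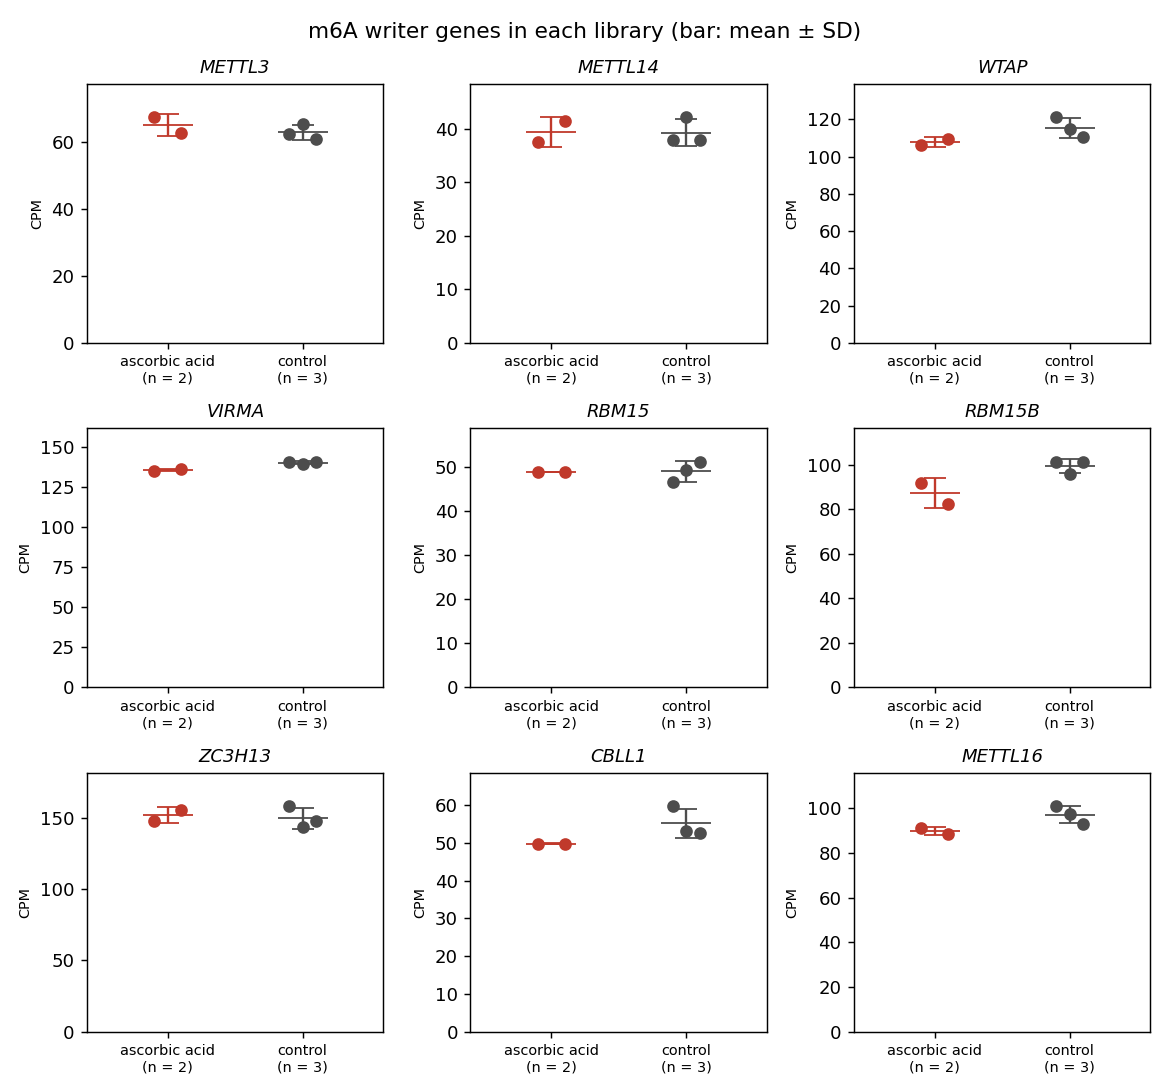
Normalised level (CPM, axis from 0) of each of the 9 writer genes in the 2 ascorbic acid libraries (red) and the 3 control libraries (grey), with mean and SD. The ascorbic acid points lie below every control point in WTAP, VIRMA, RBM15B, CBLL1 and METTL16, and the groups overlap in METTL3, METTL14, RBM15 and ZC3H13.

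METTL3, the catalytic subunit (chromosome 14, 21498133 to 21511375, GRCh38, minus strand), had 67.3 and 62.7 CPM in ascorbic acid libraries, against 62.2, 65.4 and 60.8 CPM in control libraries. The groups overlapped, and 1 ascorbic acid library stood above all controls while the other lay among them. The log2 fold change was 0.05 ± 0.06 (SE; edgeR adjusted p = 0.608), with a 95% interval of -0.06 to 0.16. That interval allows a change from -4.36% to 12.1%. TOX4, on the opposite strand, overlaps 6.58% of METTL3 exon length and had a log2 fold change of -0.12 ± 0.05, which did not pass (edgeR adjusted p = 0.131).

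METTL14, the partner that forms the heterodimer with METTL3 and has no catalytic activity of its own (chromosome 4, 118685368 to 118715433, plus strand), had 37.5 and 41.5 CPM in ascorbic acid libraries, against 38.0, 42.1 and 37.9 CPM in control libraries. The lowest ascorbic acid value was below every control, and the other lay inside their range. Its log2 fold change was 0.01 ± 0.07 (edgeR adjusted p = 0.968, interval -0.13 to 0.14). Both genes of the catalytic pair thus had a value near 0 and an interval that holds 0. Their interval does not show that the level was the same, only that a change of more than 12.1% upward in METTL3 or 10.3% in METTL14 lies outside it.

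The count of METTL14 per count of METTL3 was 0.557 and 0.661 in ascorbic acid libraries, against 0.610, 0.645 and 0.623 in control libraries. A ratio within a library does not depend on how libraries are scaled. The ascorbic acid values fell on either side of the controls, and the mean log2 ratio differed by -0.04 (exact permutation test, two-sided, p = 0.800). With 2 libraries against 3 the smallest p that this test can give is 0.1.

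WTAP, the adaptor that carries the heterodimer to nuclear speckles (chromosome 6, 159725585 to 159756319, plus strand), had 106.2 and 109.6 CPM in ascorbic acid libraries, against 121.1, 115 and 110.5 CPM in control libraries. The groups did not overlap, though the nearest values of each lay less than 1 CPM apart. The log2 fold change of -0.10 ± 0.05 did not pass (edgeR adjusted p = 0.194, interval -0.20 to 0.00). WTAP per METTL3 count was 1.58 and 1.75 in ascorbic acid libraries, against 1.95, 1.76 and 1.82 in control libraries, a difference in log2 ratio of -0.15 (exact permutation p = 0.200, 0.267 after Benjamini-Hochberg adjustment over 4 ratios). WTAP exons overlap those of SOD2, on the opposite strand, over 298 and 139 bases in its 2 entries in the annotation, and SOD2 had a log2 fold change of -0.10 ± 0.05 that did not pass (edgeR adjusted p = 0.152). A WTAP pseudogene, WTAPP1, lies on chromosome 11. Whether the counting used strand is not given in the sources used here.

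VIRMA, the large scaffold that directs methylation to regions near stop codons (chromosome 8, 94487693 to 94553529, minus strand), had the smallest SD of the 9 in the control libraries, 0.764 CPM. It had 135 and 136 CPM in ascorbic acid libraries, against 140.8, 139 and 140.7 CPM in control libraries. The groups did not overlap, yet the difference was small (log2 fold change -0.05 ± 0.05, edgeR adjusted p = 0.551, interval -0.14 to 0.05). The test shares its estimate of spread across genes, so a small spread in 5 values alone does not make a call.

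ZC3H13, a zinc finger protein that keeps the complex in the nucleus (chromosome 13, 45954465 to 46052759, minus strand), had 148 and 156 CPM in ascorbic acid libraries, against 158, 143 and 148 CPM in control libraries, and the groups overlapped. Its log2 fold change was 0.02 ± 0.05 (edgeR adjusted p = 0.826, interval -0.08 to 0.12).

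CBLL1, also called Hakai, is a RING domain protein (chromosome 7, 107743697 to 107761667, plus strand). It had 49.8 and 49.9 CPM in ascorbic acid libraries, against 59.7, 53.2 and 52.7 CPM in control libraries. The ascorbic acid libraries lay below every control, and control replicate 1 stood highest. The log2 fold change of -0.15 ± 0.06 did not pass (edgeR adjusted p = 0.0971), although its own unadjusted 95% interval of -0.27 to -0.03 did not hold 0. Without control replicate 1 the log2 fold change was -0.08 (adjusted p = 0.478). A share of 6.08% of its exon length overlaps an antisense gene.

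**Figure D2:**
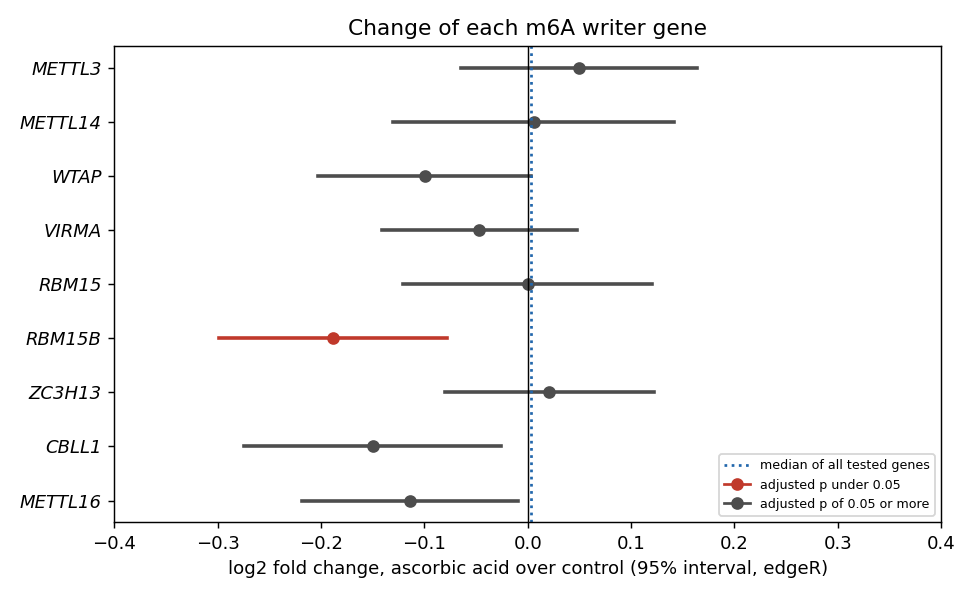
Log2 fold change of each writer gene, ascorbic acid over control, with its unadjusted 95% interval from the edgeR fit. RBM15B (red, -0.19) is the gene that passed an adjusted p of 0.05; the intervals of CBLL1 and METTL16 also lie below 0 but their adjusted p did not pass, and the dotted line is the median of all tested genes.

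RBM15 and RBM15B are paralogous RNA-binding proteins that bring the complex to its target RNAs. RBM15B (chromosome 3, 51391268 to 51397908, plus strand) had 92.0 and 82.4 CPM in ascorbic acid libraries, against 101.3, 95.6 and 101.2 CPM in control libraries. Both ascorbic acid libraries were below the lowest control, and the libraries of the ascorbic acid group differed from each other by more than those of the control group. RBM15B fell by 0.19 on the log2 scale (SE 0.05, edgeR adjusted p = 0.0178, interval -0.30 to -0.08), a drop of 12.2%, with an interval from -18.7% to -5.27%.

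RBM15 (chromosome 1, 110338506 to 110346681, plus strand) had 49.0 and 49.1 CPM in ascorbic acid libraries, against 46.7, 49.4 and 51.3 CPM in control libraries. The ascorbic acid values lay inside the range of the controls, and the log2 fold change was 0.00 ± 0.06 (edgeR adjusted p = 1, interval -0.12 to 0.12). RBM15B per RBM15 count was 1.88 and 1.68 in ascorbic acid libraries, against 2.17, 1.94 and 1.97 in control libraries. Both ascorbic acid ratios were below every control ratio, and the mean log2 ratio differed by -0.19, with an exact permutation p of 0.1, the smallest the design allows (0.200 after Benjamini-Hochberg adjustment over 4 ratios).

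The annotated RBM15B transcript is 6641 bases long and comes from 1 exon. The longest run of bases it shares with any RBM15 transcript is 16, and 0 windows of 25 bases are shared, so reads of that length or more that match exactly would not be exchanged between the paralogs. RBM15B also shares 1325 bases, 20% of its exon length, with DCAF1, which is transcribed from the opposite strand. DCAF1 had 147 and 145 CPM in ascorbic acid libraries, against 153, 148 and 148 CPM in control libraries (log2 fold change -0.04 ± 0.05, edgeR adjusted p = 0.658). The part of shared reads in the RBM15B value was not tested.

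The RBM15B call did not stand in every fit. It ended without ascorbic acid replicate 2 (log2 fold change -0.12, adjusted p = 0.202) and without control replicate 1 (-0.17, adjusted p = 0.100). It also ended with scaling by library totals (-0.15, adjusted p = 0.0640), with the trend over expression removed by cyclic loess (-0.15, adjusted p = 0.0749) and in a test against a fold of 1.2. The sign was negative in all 19 alternative fits, and 14 of them made the call.

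**Figure D3:**
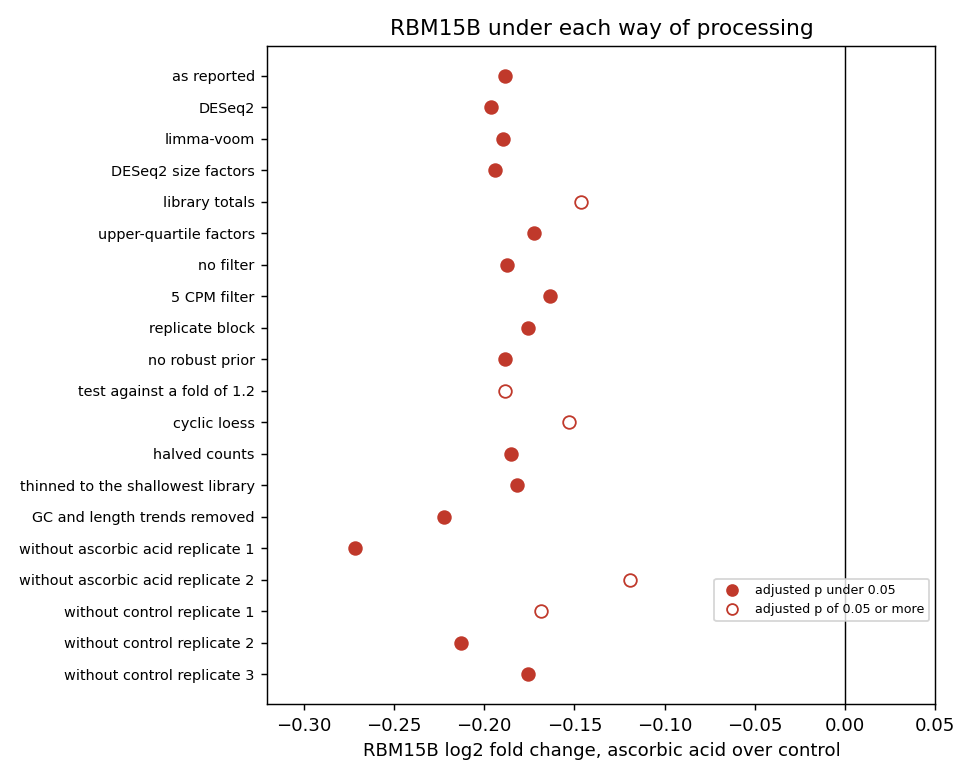
RBM15B log2 fold change, ascorbic acid over control, as reported (top) and under each of 19 alternatives. Filled points have an adjusted p under 0.05 and open points do not; values run from -0.27 without ascorbic acid replicate 1 to -0.12 without ascorbic acid replicate 2, and none reaches 0.

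Over the 10412 tested genes at 5 CPM or more outside the writer genes, 3 had the profile nearest to that of RBM15B over the 5 libraries, by Euclidean distance between mean-centred log2 CPM. They were SSR4, a subunit of the translocon-associated complex of the endoplasmic reticulum (distance 0.03), CDC20, an activator of the anaphase-promoting complex (0.03), and ADD2, an adducin of the membrane skeleton (0.04). SSR4 had 154 and 141 CPM in ascorbic acid libraries, against 171, 160.4 and 171 CPM in control libraries. With 5 libraries and so many genes searched, a near match says little about a gene.

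METTL16 (chromosome 17, 2405562 to 2511891, minus strand) works apart from the complex. It methylates U6 small nuclear RNA and hairpins of the MAT2A mRNA, which encodes the S-adenosylmethionine synthetase of most tissues. The MAT2A sites are shown because they are the known mRNA substrate of this writer. Each line gives 29 bases of the MAT2A 3′ UTR, written as DNA from the GENCODE 29 transcript, plus strand of chromosome 2 on GRCh38, with the recognised sequence in capitals.

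site 1, chr2:85543802-85543830: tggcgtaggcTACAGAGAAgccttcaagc
site 2, chr2:85544589-85544617: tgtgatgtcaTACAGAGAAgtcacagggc
site 3, chr2:85544774-85544802: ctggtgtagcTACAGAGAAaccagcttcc
site 4, chr2:85544889-85544917: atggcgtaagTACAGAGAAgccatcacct
site 5, chr2:85545004-85545032: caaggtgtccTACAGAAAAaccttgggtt
site 6, chr2:85545112-85545140: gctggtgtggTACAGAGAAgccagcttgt

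TACAGAGAA was found on the transcript strand 5 times in MAT2A and TACAGAAAA at 1 further place. Of the longest transcripts of 19669 protein-coding genes, which vary in length, 3.27% held TACAGAGAA. That of MAT2A was among the 2 transcripts that held it 5 times or more. A match describes the letters and does not show methylation.

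METTL16 had 91.0 and 88.7 CPM in ascorbic acid libraries, against 100.8, 97.6 and 93.2 CPM in control libraries. The groups did not overlap, and the log2 fold change of -0.11 ± 0.05 did not pass (edgeR adjusted p = 0.137, interval -0.22 to -0.01). METTL16 per METTL3 count was 1.35 and 1.41 in ascorbic acid libraries, against 1.62, 1.49 and 1.53 in control libraries. Both ascorbic acid ratios were below every control ratio, with a difference in log2 ratio of -0.16 (exact permutation p = 0.1, 0.200 adjusted over 4 ratios).

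MAT2A, the METTL16 substrate whose sites are given above, had 367 and 396 CPM in ascorbic acid libraries, against 399.7, 406 and 396 CPM in control libraries. Only ascorbic acid replicate 1 lay apart from the controls, and the log2 fold change was -0.07 ± 0.05 (edgeR adjusted p = 0.325, interval -0.16 to 0.02). GGCX, on the opposite strand, overlaps 12.4% of MAT2A exon length.

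In 5 of the 9 writer genes the ascorbic acid and control libraries did not overlap, and in all 5 the ascorbic acid libraries were the lower ones. Across all tested genes 43.0% did not overlap, 22.6% with every ascorbic acid library above every control and 20.4% with every one below. The share below depends on expression level. It was 21.7% between 20 and 50 CPM, where METTL14 and RBM15 lie, and 33.7% between 50 and 200 CPM, where the other 7 writer genes lie. The part of this trend in the writer values was not tested.

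To set the genes against each other, levels were put per length, as RPKM (CPM divided by kilobases of annotated exon). WTAP was highest, with 16.8 ± 0.383 RPKM in ascorbic acid libraries (SD, n = 2) and 18.0 ± 0.830 RPKM in control libraries (SD, n = 3). METTL14 was lowest, with 5.75 ± 0.410 RPKM in ascorbic acid libraries and 5.73 ± 0.356 RPKM in control libraries. METTL3 had 11.0 ± 0.543 RPKM in ascorbic acid libraries and 10.7 ± 0.396 RPKM in control libraries, so its level per exon length was above that of METTL14 in every library.

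From high to low the order of the means over 5 libraries was WTAP, ZC3H13, RBM15B, VIRMA, METTL3, METTL16, RBM15, CBLL1 and METTL14. The group means differed in parts of that order. The ZC3H13 mean was above that of RBM15B in ascorbic acid libraries (14.8 and 13.1 RPKM). It was below that of RBM15B in control libraries (14.6 and 15.0 RPKM), although ZC3H13 was the higher gene in control replicate 1. The METTL16 mean was 10.1 RPKM in ascorbic acid libraries and 10.9 RPKM in control libraries. It was below the means of METTL3 and RBM15 with ascorbic acid and above both in control libraries. Single control libraries departed from this, with METTL16 below METTL3 in control replicate 2 and below RBM15 in control replicate 3. The ranges over libraries of ZC3H13 (14.0 to 15.4 RPKM) and RBM15B (12.4 to 15.2) overlapped, as did those of RBM15B and VIRMA (12.6 to 13.1). METTL3 (10.3 to 11.4), METTL16 (9.93 to 11.3), RBM15 (9.99 to 11.0) and CBLL1 (9.09 to 10.9) also overlapped with their neighbours in the order. WTAP, above ZC3H13, VIRMA, above METTL3, and METTL14, below CBLL1, were the places where neighbours did not overlap.

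The order depends on the length used. With the longest annotated transcript in place of all exons, a choice made after the lengths were seen, METTL3 had a mean of 25.2 RPKM and came second to WTAP at 30.8 RPKM, since its longest transcript has 2523 bases and its exons together 5894. VIRMA then had 21.2, ZC3H13 18.8, METTL16 16.5, RBM15B 14.2, CBLL1 12.0, RBM15 11.6 and METTL14 5.91 RPKM. With this length ZC3H13 was above RBM15B, and METTL16 lay below METTL3 and above RBM15, in both groups. The means of CBLL1 and RBM15 changed places instead. CBLL1 was below RBM15 with ascorbic acid (11.24 and 11.55 RPKM) and above it in control libraries (12.45 and 11.57 RPKM). WTAP was highest and METTL14 lowest with either length.

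**Figure D4:**
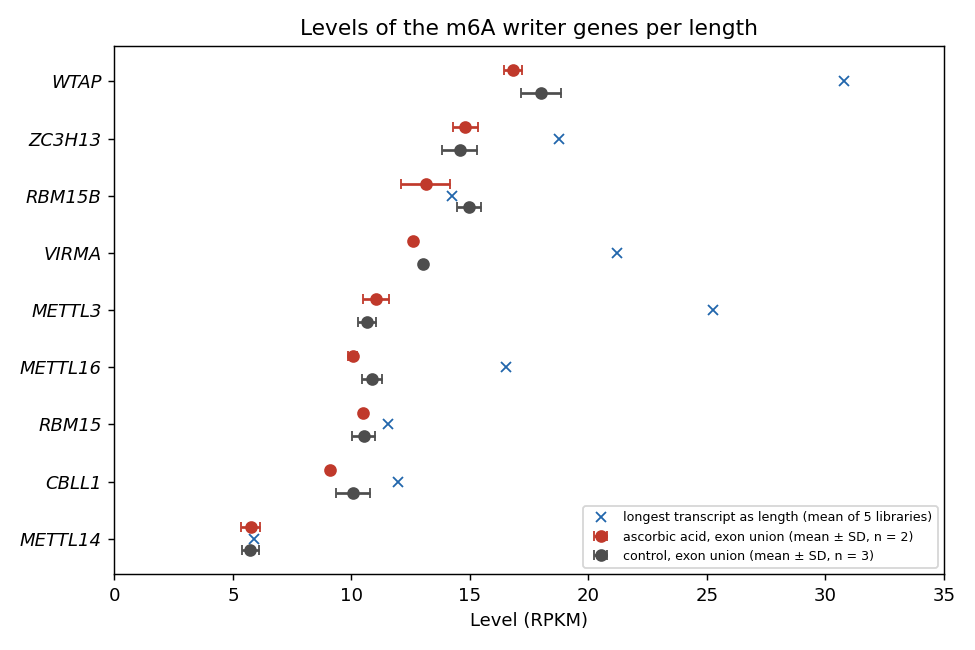
Level per length (RPKM) of each writer gene, with the mean and SD of the ascorbic acid libraries (red, n = 2) and control libraries (grey, n = 3) over the length of all annotated exons. Crosses give the mean of 5 libraries over the longest transcript; METTL3 moves up and RBM15B down in that order, and WTAP (30.8) and METTL14 (5.91) keep the ends of the order.

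Among genes around the writers, the erasers had 1 of 2 called. FTO rose, with 110.6 and 108.7 CPM in ascorbic acid libraries, against 89.0, 88.2 and 88.4 CPM in control libraries (log2 fold change 0.31 ± 0.05, edgeR adjusted p = 5.48e-05). ALKBH5 had 143 and 134 CPM in ascorbic acid libraries, against 140.6, 139 and 143 CPM in control libraries, and did not pass (-0.03 ± 0.05, adjusted p = 0.773). Among 12 m6A readers, 1 gene rose, 2 fell and 9 missed the threshold, and the list median was -0.06. Across all tested genes 14.3% were called, and the share called lower depends on level. It was 10.6% between 50 and 200 CPM (median log2 fold change -0.04) and 20.5% above 200 CPM (median -0.07). The part of this trend in the related lists was not tested. IGF2BP3, which stabilises bound mRNA, rose by 0.18 ± 0.06 (edgeR adjusted p = 0.0242), while YTHDC1, the nuclear reader, had -0.16 ± 0.05 (0.0310) and HNRNPC, a nuclear RNA-binding protein, -0.14 ± 0.05 (0.0474). The IGF2BP3 call ended without ascorbic acid replicate 2, control replicate 1 or control replicate 2 (adjusted p = 0.0757 to 0.209), the YTHDC1 call without ascorbic acid replicate 1, control replicate 1 or control replicate 2 (0.0730 to 0.205), and the HNRNPC call whichever of the 5 libraries was left out (0.0537 to 0.246). The YTHDC1 and HNRNPC calls also ended under cyclic loess (adjusted p = 0.161 for YTHDC1 and 0.554 for HNRNPC), under scaling by library totals (0.132 and 0.144), when genes were filtered at 5 CPM (0.0715 and 0.102) and when upper-quartile factors were used (0.0533 and 0.0933), and that of HNRNPC with GC and length trends removed (0.0999).

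Of 5 genes for other m6A and m6Am methyltransferases and their cofactors 0 rose, 0 fell and 5 did not pass, and 1 of them passed an unadjusted p of 0.05 in edgeR. That gene, named here after its values were seen, was METTL4, a methyltransferase of U2 small nuclear RNA, with 14.6 and 14.0 CPM in ascorbic acid libraries, against 17.1, 15.6 and 16.3 CPM in control libraries. The groups did not overlap, and its log2 fold change of -0.20 ± 0.08 did not pass adjustment (edgeR adjusted p = 0.118). The cofactor gene TRMT112 had -0.08 ± 0.05 and METTL5, which methylates ribosomal RNA with it, -0.04 ± 0.07. Of 11 tested genes that supply or recycle S-adenosylmethionine, the methyl donor of the writers, 0 rose, 1 fell and 10 missed the threshold, and the list median was -0.07. The gene that fell was SLC43A2, a transporter of methionine and other large neutral amino acids. It had 7.01 and 6.54 CPM in ascorbic acid libraries, against 8.31, 8.76 and 8.89 CPM in control libraries (-0.35 ± 0.11, edgeR adjusted p = 0.0306). The SLC43A2 call ended when any 1 library was left out (adjusted p = 0.0567 to 0.166), with DESeq2 (0.0719), with library totals (0.0613) and with the replicate block (0.0691).

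Of 15 tested genes of the METTL family outside these lists 1 rose, 0 fell and 14 did not pass. METTL8, which methylates cytosines of mitochondrial transfer RNA, was the gene that rose. It had 59.8 and 62.1 CPM in ascorbic acid libraries, against 45.3, 50.5 and 46.1 CPM in control libraries (0.37 ± 0.06, edgeR adjusted p = 7.52e-05), and the call stood whichever library was left out. Of 15 genes for other modifications of mRNA and its cap 0 rose, 2 fell and 13 did not pass. NSUN2, a cytosine methyltransferase, had -0.19 ± 0.05 (edgeR adjusted p = 0.00408), and NAT10, an acetyltransferase, -0.15 ± 0.05 (0.0297). The NAT10 call ended without ascorbic acid replicate 2, control replicate 1 or control replicate 3 (adjusted p = 0.0525 to 0.171). It also ended under cyclic loess (0.202), under scaling by library totals (0.108), when genes were filtered at 5 CPM (0.0641) and when upper-quartile factors were used (0.0559). None of the 8 related genes called passed against a fold of 1.2.

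**Figure D5:**
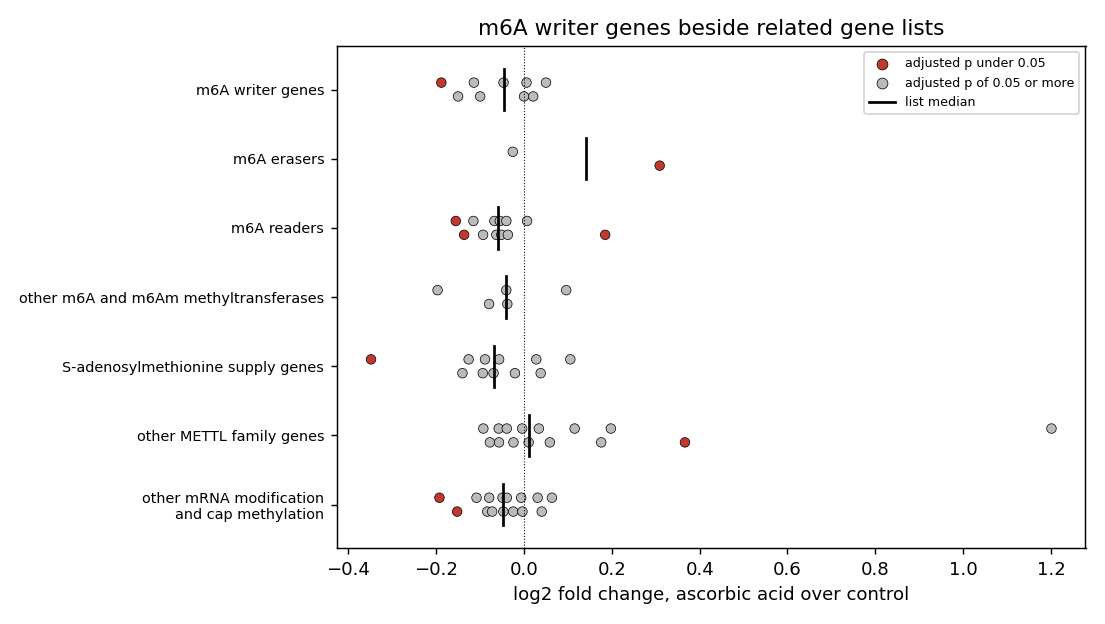
Log2 fold change, ascorbic acid over control, of each tested gene (points) in the m6A writer list and 6 related lists, with the median of each list (black bar). Red points passed an adjusted p of 0.05 and grey points did not; the writer list has 1 red point, RBM15B at -0.19, FTO and METTL8 stand at 0.31 and 0.37, and the grey point farthest to the right is METTL24, which was below 1 CPM in every library.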

How the data were processed

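The deposited table holds raw counts of reads per gene symbol in 5 libraries, as whole numbers. The submitters' processing notes name hg38 (GRCh38), STAR, featureCounts, DESeq2 and Trimmomatic 0.39. No annotation, strand setting or rule for reads with several matches was given in the sources used here. Column prefixes were read as control ("con") and vitamin C ("vc"). No row lacked a name.

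Genes were filtered with filterByExpr, scaled with TMM factors (0.984 to 1.03) and compared by the two-sided quasi-likelihood test of edgeR 4.0.16 (robust prior, R 4.3.3) over 2 ascorbic acid and 3 control libraries without covariates, with Benjamini-Hochberg adjustment over 15271 genes. CPM uses TMM-scaled totals; RPKM divides it by exon length from GENCODE 29. Standard errors and 95% intervals were derived from the fold change and F statistic. Replicates differed by more than the noise of independent counts (chi-square per degree of freedom 3.95 to 7.20). This measure takes each count as a separate fragment, and the part of the excess of even counts in it was not tested. The scripts were tested on simulated data. Alternatives used DESeq2 1.42.0, limma 3.58.1 and mgcv 1.9.3. The writer genes and gene lists were chosen with earlier results of these data known. Genes named are the 9 writers, up to 4 called genes of each related list or else its 2 highest, MAT2A, FTO, ALKBH5, the 3 profiles nearest to the writer with the smallest p, and genes overlapping a writer's exons; METTL4 and METTL24 were named after their values were seen. Of 63 related genes listed, 62 were in the table under their symbol, and 60 were tested. One further marker list is not reported here.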

Additional observations from a re-analysis of the deposited data

How the results depend on the processing

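RBM15B, WTAP, CBLL1 and METTL16 stayed negative in all 19 fits, and no writer gene other than RBM15B passed in any. The number of writers called lower was 0 with library totals, with cyclic loess and against a fold of 1.2, and 0 to 1 with a library left out. Of all tested genes, 2182 were called (1303 higher, 879 lower). DESeq2 called 806 higher, library totals 389 lower, the 5 CPM filter 542 lower, cyclic loess 1439 (516 lower), removal of GC and length trends 1455 lower, and the test against a fold of 1.2 called 286 (275 higher, 11 lower). With a library left out, 1180 to 2047 were called, 790 to 1279 higher and 335 to 768 lower, the lowest total and lower count without control replicate 1. Related-list genes called were 8 as reported, 4 with library totals, 5 each with upper-quartile factors, the 5 CPM filter and cyclic loess, 0 against a fold of 1.2, and 3 to 7 with a library left out. The cause of these differences was not tested. Thinning to equal depth depends on its random draw: over 20 draws, added after 2 draws were seen to give 5 and 8 related-list calls, 5 to 9 were called, and RBM15B was called in each (edgeR adjusted p = 0.00668 to 0.0434).

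Signs turned where values were near 0 and not called. METTL14 was -0.0026 with DESeq2, -3e-04 with its size factors, -0.0209 with the replicate block, -0.0752 without ascorbic acid replicate 2, -0.0152 without control replicate 1 and -0.0183 without control replicate 3, and at most 0.0769 with a library left out. RBM15 was -0.0082 with DESeq2, -0.0057 with its size factors, -0.0068 with thinning, -0.0136 with GC and length trends removed, -0.0079 without ascorbic acid replicate 2 and -0.0316 without control replicate 1. METTL3 ran from -0.0024 without ascorbic acid replicate 1 to 0.0916 without replicate 2 with a library left out, and was positive in the 14 other fits. ZC3H13 was -0.0231 without ascorbic acid replicate 2 and -0.0068 without control replicate 2, at most 0.0688 with a library left out, and 0.0719 with cyclic loess, its highest of the 19 fits. VIRMA was 5e-04 with cyclic loess. ALKBH5 was 0.0166 with library totals, 0.0207 with cyclic loess and 0.0124 without ascorbic acid replicate 2, and at least -0.0738. With a library left out, the log2 ratio differences ran from -0.167 to 0.0794 for METTL14 over METTL3 (positive without ascorbic acid replicate 1), -0.220 to -0.0733 for WTAP over METTL3, -0.269 to -0.109 for RBM15B over RBM15 and -0.194 to -0.129 for METTL16 over METTL3.

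The groups share the replicate numbers 1 and 2 alone, and a number alone does not pair libraries, so the numbers were not taken as pairs. Deviations of same-numbered libraries correlated at 0.025 and 0.011. With 2 ascorbic acid libraries, the deviations of replicate 1 are those of replicate 2 with the sign turned, so these values are not separate checks. With the replicate block 1880 genes were called, and RBM15B had -0.18 (adjusted p = 0.0316). Replicate number 3 occurs only among controls, so the block gives control replicate 3 no weight in the group difference. That fit is therefore close to the one without control replicate 3, where RBM15B also had -0.18. Leaving out an ascorbic acid library makes a single one stand for its group, with its spread taken from the controls.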
